A study of Mus musculus with 9 samples.

Results

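A set of 8 genes of the Krueppel-like factor (KLF) family other than Klf1 and Klf9 is described here: Klf2, Klf3, Klf4, Klf6, Klf7, Klf10, Klf11 and Klf13. They were taken by gene symbol from the 19840 names in the deposited RNA-seq tables, and each had 1 transcript record. The libraries came from fetal liver of C57BL/6 mouse embryos aged 13.5 to 14.5 days, and each of the 9 conditions had 1 library. Of the cultured progenitors, 4 libraries came from burst-forming cells (BFU-E) gated for the lowest 10% of both CD71 and CD24a (CD71/CD24a sort). Of these, 1 received 100 nM dexamethasone (Dex, a synthetic glucocorticoid) and 333 µM DMOG (dimethyloxalylglycine, which blocks the prolyl hydroxylases that mark hypoxia-inducible factors for degradation). The other 3 received 100 nM Dex, 333 µM DMOG or water. A pair of cultured libraries came from BFU-E gated for the lowest 10% of CD71 alone (CD71 sort), with 100 nM Dex or with water. Erythropoietin (2 U/mL), IGF-1 (40 ng/mL) and stem cell factor (100 ng/mL) were in the serum-free medium of all 6 cultures, which ran for 4 h before the agents were added and 4 h after. The 3 uncultured libraries were fresh BFU-E, fresh CFU-E (the later colony-forming progenitor, gated for the highest 20% of CD71) and fresh Ter119-positive erythroblasts, which lacked Kit. Both progenitor gates took Kit-positive cells and left out cells bearing Ter119, CD34, CD41 or surface markers of B, T and myeloid cells.

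KLF proteins bind CACCC and GC-rich elements of DNA through a conserved stretch of C2H2 zinc fingers, and differ in the domain that recruits coactivators or corepressors. In red cell precursors the founding member, Klf1, activates globin, heme and membrane genes, and Klf3 is one of its known targets in mouse. Klf3 represses transcription through the corepressor CtBP and can occupy sites of Klf1. Klf10 and Klf11 were found as genes induced by transforming growth factor beta, and together with Klf13 they carry a domain that binds the corepressor Sin3a. Klf2 and Klf4 lie downstream of the kinase ERK5 and MEF2 factors in endothelium, and Klf2 is also needed for embryonic globin expression in mouse.

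Values are RPKM, the reads of a transcript per kilobase of its length and per mega reads of the library. They were divided by 1 scaling factor per library and are called normalised RPKM or level below. Recovered depth ran between 11.8 and 52.8 mega reads, with the CD71 sort pair the shallowest and the pair with DMOG the deepest. The factor of Ter119-positive cells was 0.419, and those of the other 8 libraries lay between 1.02 and 1.18. Ratios between Ter119-positive cells and other libraries therefore depend strongly on it. That of Klf3 over CFU-E was 9.99 with the factors and 3.86 without them. Both forms are given for the 6 members with at least 29 reads in each fresh library, and the counts over other lists use the factor. Erythroid markers summed to 487 in BFU-E, 965 in CFU-E and 104075 in Ter119-positive cells, where Hba-a1 alone was 74090. The 5 stem and progenitor markers summed to 517, 152 and 7.95. This is the order of the labelled stages. It is not independent of the gates, since Kit, Cd34 and Tfrc (CD71) are among these markers. Levels of other cell types' genes also differed between the fresh libraries. Over 9 neutrophil markers they summed to 99.3 in BFU-E, 4.79 in CFU-E and 204 in Ter119-positive cells, and over 8 monocyte and macrophage markers 6.97, 1.54 and 40.6 in the same order. In Ter119-positive cells 0 of these 17 markers were at 0, and the part such cells have in the values below was not tested. The glucocorticoid response genes Fkbp5, Per1 and Tsc22d3 rose with Dex by 1.54, 1.57 and 1.31 on the log2 scale (limma, adjusted p 0.000916, 0.00729 and 0.00166).

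The promoters of Klf3, Klf11 and Klf13 are shown because Klf3 and Klf11 varied together over the libraries and Klf13 had the largest Dex difference of the 8 genes. This choice was made after their values were seen. They are the 250 bases before the annotated start in RefSeq on GRCm38.p6, read 5′ to 3′ on the gene's strand: Klf3 at chr5:64803271-64803520 (plus strand), Klf11 at chr12:24651121-24651370 (plus strand) and Klf13 at chr7:63938916-63939165 (minus strand). Capitals mark matches on either strand to the CACCC box bound by KLF proteins (CACCC) or to the core of a hypoxia element (ACGTG or GCGTG).
Klf3: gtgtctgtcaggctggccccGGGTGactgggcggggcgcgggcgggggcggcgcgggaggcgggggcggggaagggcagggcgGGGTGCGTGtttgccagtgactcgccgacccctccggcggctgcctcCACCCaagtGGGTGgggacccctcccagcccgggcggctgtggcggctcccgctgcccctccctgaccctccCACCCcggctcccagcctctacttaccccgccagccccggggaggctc
Klf11: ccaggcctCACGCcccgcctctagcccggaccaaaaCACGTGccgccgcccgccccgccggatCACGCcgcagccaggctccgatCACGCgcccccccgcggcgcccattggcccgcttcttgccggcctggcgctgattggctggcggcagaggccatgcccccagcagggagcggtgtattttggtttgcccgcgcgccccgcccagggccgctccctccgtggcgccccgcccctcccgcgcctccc
Klf13: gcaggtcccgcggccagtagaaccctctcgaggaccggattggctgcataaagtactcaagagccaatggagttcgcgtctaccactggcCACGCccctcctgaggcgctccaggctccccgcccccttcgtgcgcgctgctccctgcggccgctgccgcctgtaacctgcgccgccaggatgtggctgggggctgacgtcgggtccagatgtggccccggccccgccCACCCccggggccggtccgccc
Klf3 held 5 matches to CACCC, 1 of which overlaps its only match to the hypoxia element. Klf11 held 0 matches to CACCC and 5 to the hypoxia element, of which 2 are the same palindrome read on each strand. Klf13 held 1 match to each. The C and G content of the 3 windows was 78.4%, 76.8% and 71.6%. Of 32851 RefSeq promoter windows of the same length, 52.0% held CACCC and 38.6% a hypoxia element, so either match is common. Of the 8 genes, 7 had a window (not Klf10), and 0 of the 7 held the AGAACA element of the glucocorticoid receptor (in 16.1% of all windows) or a GATA box (AGATAA, in 9.99%). A match is a description of letters and not of a bound site, and the lack of one says only that these letters are not in this window.

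Across the 9 libraries the 8 genes covered 3 ranges of level. Klf3, Klf10 and Klf13 were at 1.95 or more everywhere, Klf6, Klf7 and Klf11 were between 0.510 and 43.4, and Klf2 and Klf4 did not exceed 0.300. Together they made up 14.6% (CFU-E) to 26.7% (Ter119-positive) of the summed level of 17 KLF genes, while Klf1 made up 56.0% (Dex with DMOG) to 73.7% (CFU-E). Klf13 was the highest of the 8 in CD71 sort Dex and in fresh BFU-E, and Klf3 in the other 7 libraries. Klf2 and Klf4 were the 2 lowest in every library.

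**Figure D1:**
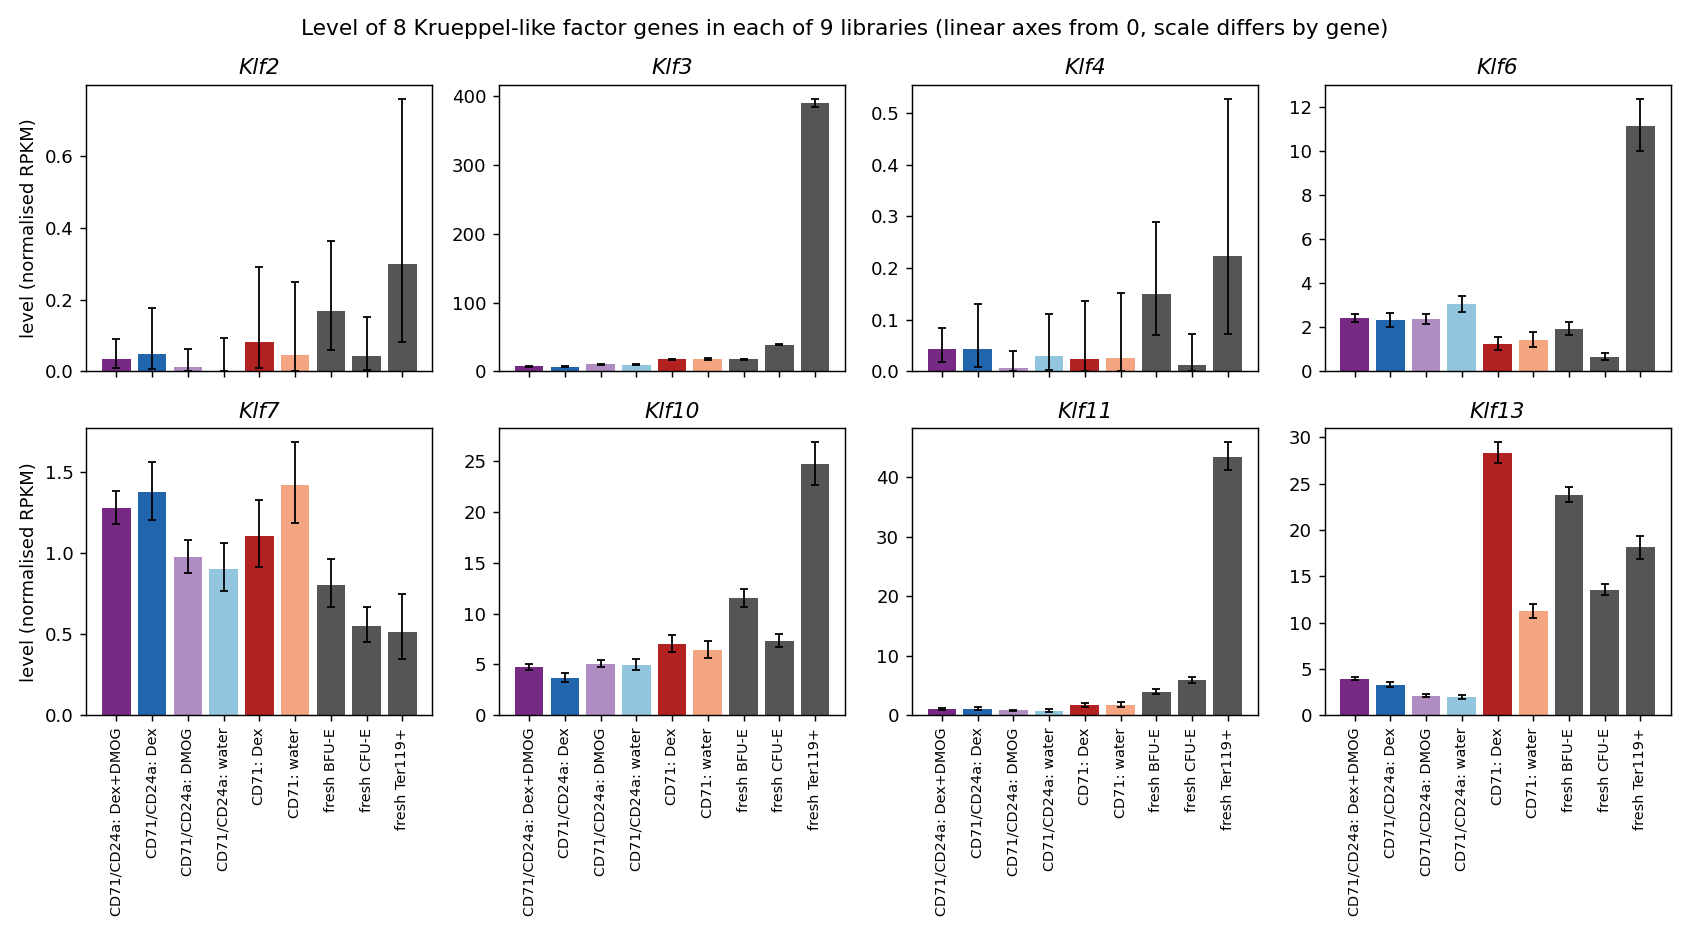
Level of each of the 8 genes in each of the 9 libraries, in normalised RPKM on linear axes from 0 that differ in scale between genes; bars are single libraries and error bars the exact 95% interval of counting error. Klf3, Klf6, Klf10 and Klf11 are highest in fresh Ter119-positive cells, Klf13 in CD71 sort Dex, and the intervals of Klf2 and Klf4 overlap between most libraries.

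The first pair of comparisons asked how the genes differ along maturation. With 1 library per stage there is no test. Ratios carry exact (Clopper-Pearson) 95% intervals that cover counting error only, and genes at a level of 1 or more in either library were counted past a difference of 2-fold on the scale of log2(level + 1). Klf3 stood higher at each later stage, Klf11 likewise, and Klf6 and Klf10 were lowest in CFU-E. Klf13 was lowest in CFU-E with the scaling factor and in Ter119-positive cells without it. In bulk RNA, more cells of a type and more RNA per cell cannot be told apart.

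Klf3, the CtBP-dependent repressor, was 17.5 in fresh BFU-E, 39.0 in fresh CFU-E and 389 in fresh Ter119-positive cells. The first step was a ratio of 2.23 (2.11 to 2.35). The second was 9.99 (9.68 to 10.3) with the scaling factor and 3.86 (3.74 to 3.98) without it, so Klf3 was higher in Ter119-positive cells either way. Its most abundant relative and known activator Klf1 was 187 in BFU-E, 337 in CFU-E and 1247 in Ter119-positive cells, and Klf9 was 3.07, 5.02 and 0.417 in the same order. Among 7 expressed targets of Klf1, Klf3 included, 4 were past 2-fold higher and 0 lower in CFU-E against BFU-E. Of 6 expressed targets 5 were higher and 1 lower in Ter119-positive cells against CFU-E.

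Klf11 and Klf10, the 2 genes named for their induction by TGF-beta, differed at the first step. Klf11 was 3.93 in BFU-E, 5.84 in CFU-E and 43.4 in Ter119-positive cells, with ratios of 1.49 (1.30 to 1.71) for CFU-E over BFU-E and 7.44 (6.75 to 8.20) for Ter119-positive cells over CFU-E. Klf10 was 11.5, 7.33 and 24.7 at the same stages, with ratios of 0.635 (0.568 to 0.712) and 3.37 (2.99 to 3.80). Without the scaling factor the second ratios were 2.87 for Klf11 and 1.30 for Klf10. Klf10 therefore stayed higher in Ter119-positive cells as deposited, but under 2-fold. The receptor Tgfbr2 stood lower at each later stage, at 12.6, 1.36 and 0.240, and so did the ligand gene Tgfb1 at 271, 75.4 and 60.4. Of 8 expressed genes of the TGF-beta route 4 were past 2-fold lower in CFU-E and 0 higher (12.3% and 3.32% among all expressed genes). Smad7 counted as expressed only through its BFU-E level of 2.45, so it could not count as higher. In Ter119-positive cells 1 of 7 expressed genes of the route was higher and 2 lower (22.6% and 28.8% among all).

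Klf13, an activator of globin promoters in reporter assays in human cells, was 23.8 in BFU-E, 13.6 in CFU-E and 18.1 in Ter119-positive cells. CFU-E stood at 0.569 of BFU-E (0.538 to 0.601). Ter119-positive cells stood at 1.34 of CFU-E (1.23 to 1.45) with the scaling factor and at 0.516 (0.476 to 0.559) without it. The direction of its last step thus depends on the scaling.

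Klf6, which is needed for yolk sac blood formation in mouse, was 1.94 in BFU-E, 0.650 in CFU-E and 11.1 in Ter119-positive cells. The ratios were 0.336 (0.249 to 0.446) for CFU-E over BFU-E and 17.1 (13.3 to 22.6) for Ter119-positive cells over CFU-E, or 6.61 without the factor. These libraries had 70 reads of Klf6 in CFU-E and 343 in Ter119-positive cells. With the scaling factor, Klf6 ran in the same order as the summed neutrophil and macrophage markers given above, lowest in CFU-E and highest in Ter119-positive cells. Klf2, Klf4 and Klf10 ran in that order too, and so did summed lymphoid and megakaryocyte markers. Without the factor the neutrophil sum was highest in BFU-E, at 105 against 5.20 in CFU-E and 85.6 in Ter119-positive cells. Klf6 stayed highest in Ter119-positive cells, at 4.67 against 2.05 in BFU-E. The part of such cells in the values of Klf6 was not tested. The immediate early genes are a class of fast-response genes that Klf6 and Klf10 are often counted with. Of their 10 expressed members 9 were past 2-fold lower in CFU-E than in BFU-E and 0 higher. Among all expressed genes 12.3% were lower and 3.32% higher. Fos, Fosb and Egr1 counted as expressed only through their BFU-E levels (11.5, 1.92 and 10.9), so they could not count as higher. In Ter119-positive cells 4 of 8 immediate early genes were higher and 2 lower than in CFU-E. Among them were Btg2 at 310 against 3.08 and Jun at 0.470 against 5.49. Among all expressed genes 22.6% were higher and 28.8% lower. Fos counted as expressed only through Ter119-positive cells and Jun only through CFU-E.

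Klf7, best known from neurons, was 0.804 in BFU-E, 0.550 in CFU-E and 0.510 in Ter119-positive cells. CFU-E over BFU-E was 0.684 (0.523 to 0.895), and Ter119-positive cells over CFU-E 0.928 (0.603 to 1.43) with the scaling factor and 0.358 (0.233 to 0.553) without it. The interval with the factor holds 1 and the one without it does not, so the last step of Klf7 depends on the scaling. Of the 32-base words of Klf7, 34.3% also occur on the opposite strand in the transcript Gm26649. Whether reads were counted by strand is not given in the sources used here, so reads of both genes cannot be told apart there. For the other 7 genes the share was at most 5.71%.

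Klf2 and Klf4 rested on few reads. Klf2 had 6 reads in BFU-E (level 0.169), 2 in CFU-E (0.0425) and 4 in Ter119-positive cells (0.300). Klf4, a factor of pluripotency and barrier epithelium, had 9 reads in BFU-E (0.151), 1 in CFU-E (0.0127) and 5 in Ter119-positive cells (0.224). The interval of CFU-E over BFU-E was 0.0250 to 1.42 for Klf2 and 0.00193 to 0.610 for Klf4. Klf2 did not differ detectably at this depth, and Klf4 was lower in CFU-E within a wide interval. Of 3 expressed targets of Klf2 known from lymphocytes and endothelium 2 were past 2-fold lower in CFU-E than in BFU-E and 0 higher. Among all expressed genes 12.3% were lower and 3.32% higher. The 2 lower targets were S1pr1 (3.34 in BFU-E and 0.679 in CFU-E) and Thbd (1.88 and 0.0519). Both counted as expressed only through BFU-E, so they could not count as higher.

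Counted over the 5 members at a level of 1 or more, 1 was past 2-fold higher in CFU-E than in BFU-E (Klf3) and 0 were lower on the scale of log2(level + 1), against 3.32% higher and 12.3% lower among all 9947 expressed genes. Klf6, at a ratio of 0.336, was -0.83 on that scale and past 2-fold lower with a pseudocount of 0.1 (-1.44). The members' median log2 difference was -0.59, against -0.08 over all expressed genes. Between Ter119-positive cells and CFU-E, 4 of 5 were past 2-fold higher (Klf3, Klf6, Klf10 and Klf11) and 0 lower, against 22.6% higher and 28.8% lower among 9530 genes. Their median was 2.70, against -0.21 over all. Klf6, at 0.650 in CFU-E, counted as expressed only through its Ter119-positive level of 11.1, so it could not count as lower. Leaving out the scaling factor shifted the median of all genes by -1.09. The counts then became 3 of 5 members higher (Klf10 at 0.34 was no longer past 2-fold) and 0 lower, with 788 genes higher and 5618 lower in place of 2156 and 2745.

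**Figure D2:**
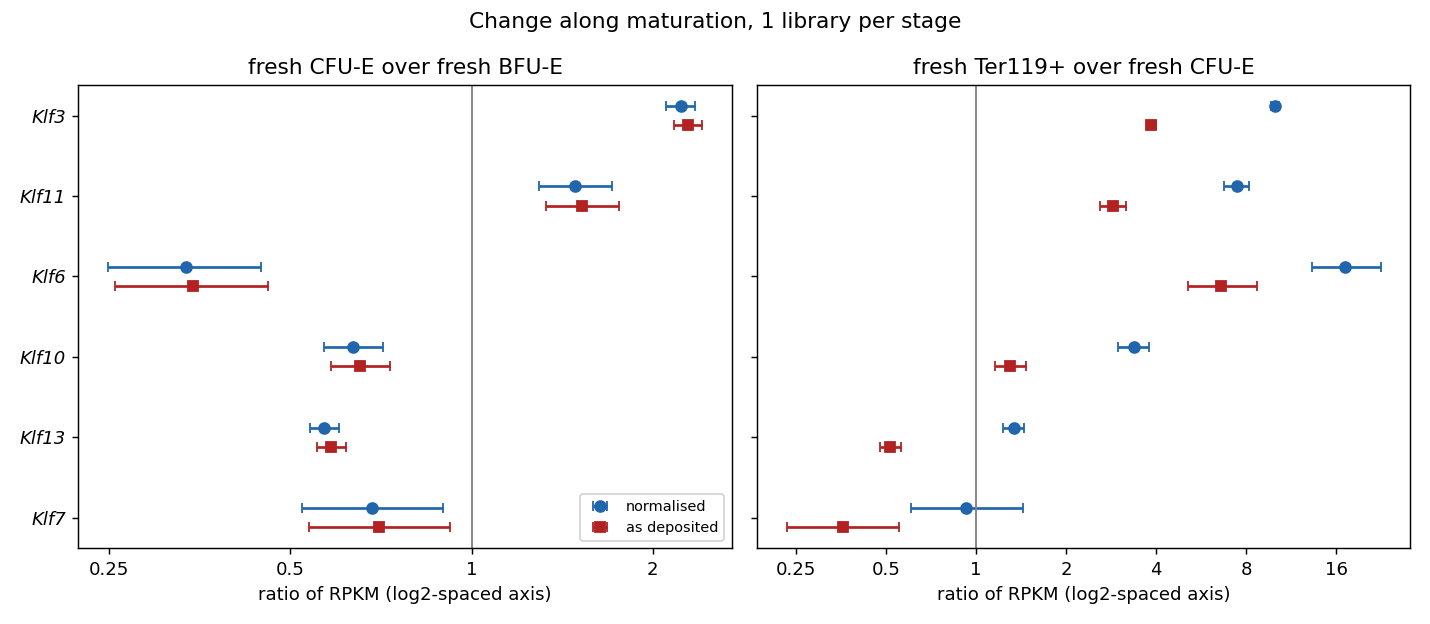
Ratio of RPKM on a log2-spaced axis for the 6 members with at least 29 reads in each fresh library, CFU-E over BFU-E on the left and Ter119-positive cells over CFU-E on the right; points are ratios with and without the scaling factor and bars the exact 95% interval of counting error. Klf3 and Klf11 lie right of 1 in both panels, and Klf13 lies on different sides of 1 in the right panel depending on the factor.

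The next comparison asked what 4 h of Dex changed in cultured BFU-E. Klf13 was the member with the largest difference, higher with Dex in all 3 culture pairs, but it missed the threshold. No member passed it. The fit was made with limma on log2(level + 1) for 9535 genes with a mean level of at least 1 over the 6 cultures, with terms for Dex, DMOG and the sort. Of the 8 members 6 passed that filter, and Klf2 and Klf4 did not. With single libraries, p-values rest on how evenly the 3 pairs responded, with 2 residual degrees of freedom.

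Klf13 was 3.94 with Dex and DMOG and 2.10 with DMOG, 3.29 with Dex and 1.95 with water in the CD71/CD24a sort, and 28.4 with Dex and 11.3 with water in the CD71 sort. Each Dex library was above its partner, while the Dex and no-Dex groups overlap across sorts. The ratios were 1.88 (1.71 to 2.07) with DMOG present, 1.68 (1.44 to 1.96) in the CD71/CD24a sort and 2.52 (2.33 to 2.73) in the CD71 sort. The fitted difference was 0.82 on the log2 scale (SE 0.146, 95% interval 0.47 to 1.18, limma, adjusted p 0.0522). The call depends on the setting. It passed in limma with a pseudocount of 0.1 (0.98, adjusted p 0.0266) and with the lowest record per name (adjusted p 0.0498). It also passed without any 1 of the 6 cultures. Leaving out either library of a pair removes that pair from the Dex term and from the spread. These fits therefore gave only 3 different values, 0.61, 0.90 and 0.97, and are not 6 separate checks. It did not pass without the scaling factor (adjusted p 0.0562), with an exact 1 kept (0.0536), without the filter (adjusted p 0.437) or without the sort in the model (adjusted p 0.99997).

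Klf3 was 7.40 with Dex and DMOG and 10.3 with DMOG, 7.23 with Dex and 9.65 with water in the CD71/CD24a sort, and 17.8 with Dex and 18.4 with water in the CD71 sort. It stood lower with Dex in the CD71/CD24a pairs, with ratios of 0.719 (0.680 to 0.761) and 0.749 (0.683 to 0.820), and close to its partner in the CD71 pair at 0.965 (0.890 to 1.05). The Dex and no-Dex groups overlap across the sorts. The fitted difference was -0.28 (SE 0.0962, limma, adjusted p 0.231). Without either CD71 sort library the Dex term rests on the CD71/CD24a pairs alone. It was then -0.40 and passed (adjusted p 0.00703 without CD71 sort Dex and 0.00500 without CD71 sort water).

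The TGF-beta-induced pair showed small differences. Klf10 was 4.71 with Dex and DMOG and 5.05 with DMOG, 3.70 with Dex and 4.97 with water in the CD71/CD24a sort, and 6.98 with Dex and 6.45 with water in the CD71 sort, so the pairs went both ways. Klf11 was 1.03 and 0.772, 1.06 and 0.732, and 1.71 and 1.74 in the same pairs, each with Dex before its partner. The fitted differences were -0.11 (95% interval -0.37 to 0.14) for Klf10 and 0.14 (-0.11 to 0.39) for Klf11, with limma adjusted p 0.640 and 0.535.

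Klf6 was 2.42 with Dex and DMOG and 2.36 with DMOG, 2.34 with Dex and 3.05 with water in the CD71/CD24a sort, and 1.22 with Dex and 1.44 with water in the CD71 sort. Klf7 was 1.28 with Dex and DMOG and 0.976 with DMOG, 1.38 with Dex and 0.899 with water in the CD71/CD24a sort, and 1.11 with Dex and 1.42 with water in the CD71 sort. For both genes the pairs differed in sign, and the Dex and no-Dex groups overlap. The fitted differences were -0.13 (-0.37 to 0.11) for Klf6 and 0.11 (-0.20 to 0.42) for Klf7, with limma adjusted p 0.558 and 0.712.

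Klf2 had 4 reads with Dex and DMOG and 1 with DMOG, 2 with Dex and 0 with water in the CD71/CD24a sort, and 2 with Dex and 1 with water in the CD71 sort. The 0 reads in CD71/CD24a sort water allow a level of up to 0.0753 (3 reads). Klf4 had 8 reads and 1 read, 3 and 2, and 1 and 1 in the same pairs, each with Dex before its partner. A difference with Dex was not detectable for either gene at this depth (limma without the filter, adjusted p 0.381 for Klf2 and 0.770 for Klf4).

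In all, 0 of the 6 tested members were called in either direction, against 1.39% higher and 0.629% lower (193 genes, 2.02%) among all 9535. The count of 193 was 1148 without CD71 sort Dex and 1253 without CD71 sort water. At an unadjusted p under 0.05 limma gave 1540 genes, Klf3 and Klf13 among them. The members' median difference was -0.00014, against -0.015 over all genes. In the rest of the KLF and SP family 2 of 8 tested genes rose with Dex and 0 fell. Klf9, a glucocorticoid response gene in many tissues, was 4.46 with Dex and DMOG and 2.21 with DMOG, 5.001 and 2.16 in the CD71/CD24a sort, and 7.73 and 3.53 in the CD71 sort (0.88, SE 0.0855, limma, adjusted p 0.00654). Klf5, an epithelial factor, rose by 0.94 (SE 0.147, limma, adjusted p 0.0351) at low levels. It was 1.32 with Dex and DMOG and 0.535 with DMOG, 1.25 and 0.187 in the CD71/CD24a sort, and 4.49 and 1.24 in the CD71 sort. Klf5 passed the filter only through the Dex libraries, the group where it was called higher.

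Genes that act around the KLF proteins mostly missed the threshold with Dex. In the route through ERK5 to Klf2 and Klf4, 1 of 6 genes fell and 0 rose, the transcription factor Mef2c at 10.6, 9.16 and 6.84 with Dex against 16.0, 16.0 and 10.6 in the partner libraries (-0.62, SE 0.0777, limma, adjusted p 0.0162). Of 7 tested immediate early genes Ier3 rose (0.73, limma, adjusted p 0.0313) and Jun fell (-0.60, limma, adjusted p 0.0475). Jun was 0.698, 0.591 and 1.16 with Dex against 1.49, 1.69 and 2.04 in the partner libraries. It passed the filter only through the libraries without Dex, the group where it was higher. Of 8 corepressor genes, 4 turnover genes, 8 genes of the TGF-beta route and 6 Klf1 targets, 0 were called in either direction.

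**Figure D3:**
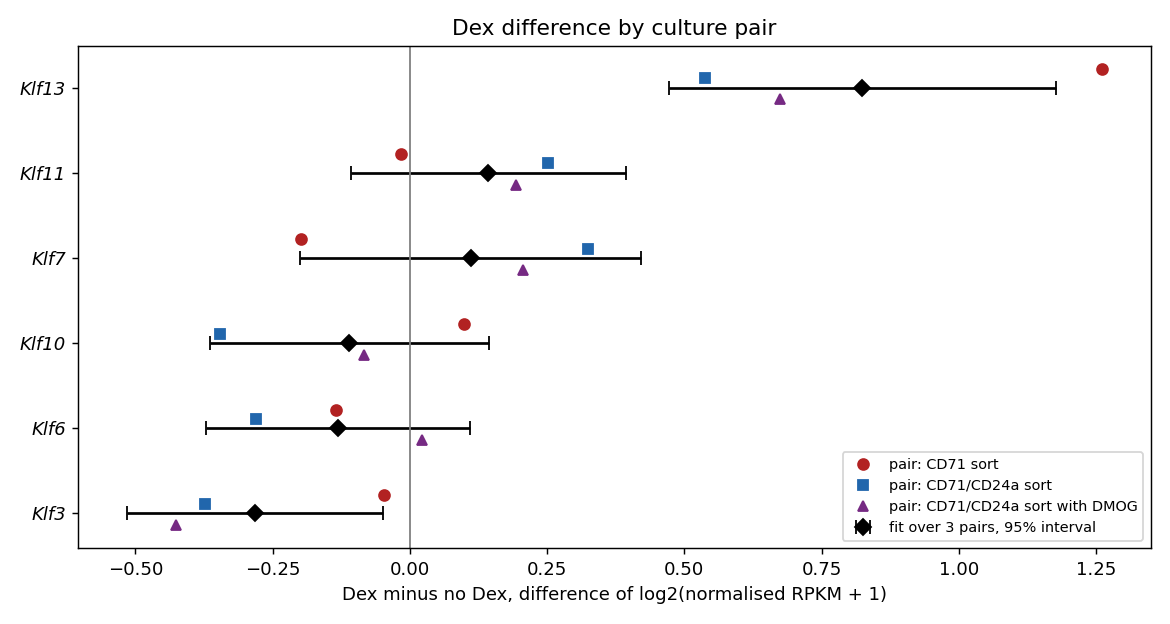
Dex minus no Dex for the 6 tested members, as the difference of log2(normalised RPKM + 1); coloured points are the 3 culture pairs and the diamond with its bar the limma fit with its 95% interval. Klf13 lies right of 0 in every pair, Klf3 left of 0 in every pair, and the pairs of Klf6, Klf7, Klf10 and Klf11 fall on both sides.

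Whether the Dex difference was the same in both sorts was tested with a Dex by sort term, added after the data were seen. Of the 6 members 1 was called, Klf13, whose Dex difference was smaller in the CD71/CD24a sort by 0.65 (-0.65, SE 0.155, limma, adjusted p 0.0328), against 2.55% of all genes called lower and 3.48% higher (6.03% in all). With a pseudocount of 0.1 it was -0.52 and no longer passed (adjusted p 0.123). The terms of the other 5 did not pass (adjusted p 0.136 to 0.988). The term sets the single CD71 pair against 2 CD71/CD24a pairs that differ in DMOG, with 1 residual degree of freedom, so the spread of the CD71 sort does not enter it. The sort, the experiment and the depth of the libraries cannot be told apart in this term.

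The comparison of cultures with DMOG and without it asked what DMOG changed over the same 4 h. No member passed the test. With DMOG, Klf10 was 4.71 on top of Dex against 3.70 with Dex alone, and 5.05 alone against 4.97 in water. Klf13 was 3.94 against 3.29 on top of Dex and 2.10 against 1.95 without it, higher with DMOG in both pairs. Klf6 was 2.42 against 2.34 on top of Dex and 2.36 against 3.05 without it, so its pairs differed in sign.

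The fitted DMOG differences of the 6 members lay between -0.12 (Klf6, 95% interval -0.41 to 0.18) and 0.15 (Klf10, -0.16 to 0.46), and limma gave an adjusted p of 0.999 for each. Across all genes 2 of 9535 were called (0.021%), with 347 at an unadjusted p under 0.05. The called count was 116 and 139 without CD71 sort Dex or water, 17 without the library with both agents and 10 without DMOG alone. The hypoxia target Bnip3 was 10.0 and 9.99 with DMOG against 3.01 and 2.65 without it in the CD71/CD24a sort and was not called either. The other hypoxia controls were also higher in both pairs and not called. Pdk1 was 32.3 and 32.4 against 23.1 and 22.5, and Vegfa 10.9 and 14.5 against 8.23 and 8.95. The members' median was 0.03, against -0.0028 over all genes. A term for Dex and DMOG together called 0 genes in limma (0.0%), with 275 at an unadjusted p under 0.05, and its values for the members lay between -0.22 (Klf13) and 0.23 (Klf6), each at adjusted p 0.999. That term sets the DMOG pair against the mean of the pairs without DMOG in both sorts, so it holds the sort as well. Within the CD71/CD24a sort the Dex difference of Klf13 was 0.67 with DMOG and 0.54 without it, the opposite direction to the term, and that of Klf7 was 0.21 with DMOG and 0.32 without it.

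The largest differences between cultures lay between the sorts. Klf13, Klf3, Klf10 and Klf11 were lower in the CD71/CD24a sort than in the CD71 sort, and Klf6 was higher. Klf13 was 1.95 to 3.94 over the 4 CD71/CD24a libraries against 11.3 and 28.4 in the CD71 sort, a fitted difference of -2.41 (SE 0.179, limma, adjusted p 0.00128). With DMOG in the fit, the sort difference of each gene sets only the CD71/CD24a libraries without DMOG against the CD71 libraries. That of Klf13 was the same, at -2.41, when either library with DMOG was left out. Klf3 was 7.23 to 10.3 against 17.8 and 18.4 (-1.03, SE 0.118, limma, adjusted p 0.00191). The groups do not overlap for either gene, which held for 67.5% of all 9535 genes.

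Klf10 was 3.70 to 5.05 in the CD71/CD24a sort against 6.45 and 6.98 in the CD71 sort (-0.54, SE 0.129, limma, adjusted p 0.0138). Klf11 was 0.732 to 1.06 against 1.71 and 1.74 (-0.53, SE 0.127, limma, adjusted p 0.0145). Its mean over the cultures was 1.17, and it passed the filter of 1 only through the CD71 sort, where it was higher. The call of Klf11 is therefore not independent of the filter. Klf6 was 2.34 to 3.05 against 1.22 and 1.44 (0.66, SE 0.122, adjusted p 0.00619). None of these 3 overlapped between the sorts, which held for 67.5% of all genes. Each of the 3 calls was lost in limma without 1 or more of the libraries. Klf10 had an adjusted p of 0.166 without CD71/CD24a sort Dex, Klf11 of 0.0601 without that library and 0.132 without CD71/CD24a sort water, and Klf6 of 0.0654 without CD71/CD24a sort water. Klf7 overlapped, at 0.899 to 1.38 against 1.11 and 1.42, and did not pass (-0.09, adjusted p 0.663).

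So 4 of 6 tested members were lower and 1 higher in the CD71/CD24a sort, where 25.0% of all genes were lower and 29.1% higher (54.2% in all). Klf11, admitted by its CD71 sort values, is among the 4. The 5165 genes called became 2182 without CD71/CD24a sort Dex and 2678 without CD71/CD24a sort water. The members' median was -0.53, against 0.04 over all genes. In the rest of the KLF and SP family 6 of 8 were lower and 0 higher, among them Klf1 (62.4 to 77.1 against 165 and 187, a difference of -1.30, SE 0.127, limma, adjusted p 0.00154). All 6 tested Klf1 targets, Klf3 included, were lower. Among them Epb42 was 0.449 to 0.889 against 1.25 and 2.37, and passed the filter only through the CD71 sort. Of 8 corepressor genes 2 were lower (Ctbp1 by -0.88, Ctbp2 by -0.36) and 2 higher (Hdac2 by 0.70, Sin3a by 0.43).

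Other measures moved with the sort. The 9 neutrophil markers summed to 5.31 to 6.38 in the CD71/CD24a sort, with 3 to 5 of them at 0, against 26.0 and 26.4 in the CD71 sort. The 6 hepatocyte markers summed to 10.5 to 13.5 against 3.39 and 5.29. The 8 erythroid markers summed to 402 to 502 against 644 and 881, with 4 called lower and 1 higher. Among them the globin gene Hba-a1 was 1.68 to 5.12 against 98.7 and 281. Depth was 18.5 to 52.8 mega reads against 11.8 and 12.9, and the deposited tables hold an exact 1 in the CD71/CD24a sort where those of the CD71 sort hold 0. Their part in the members' differences was not tested, and the sort cannot be told apart from the experiment in which it was done.

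**Figure D4:**
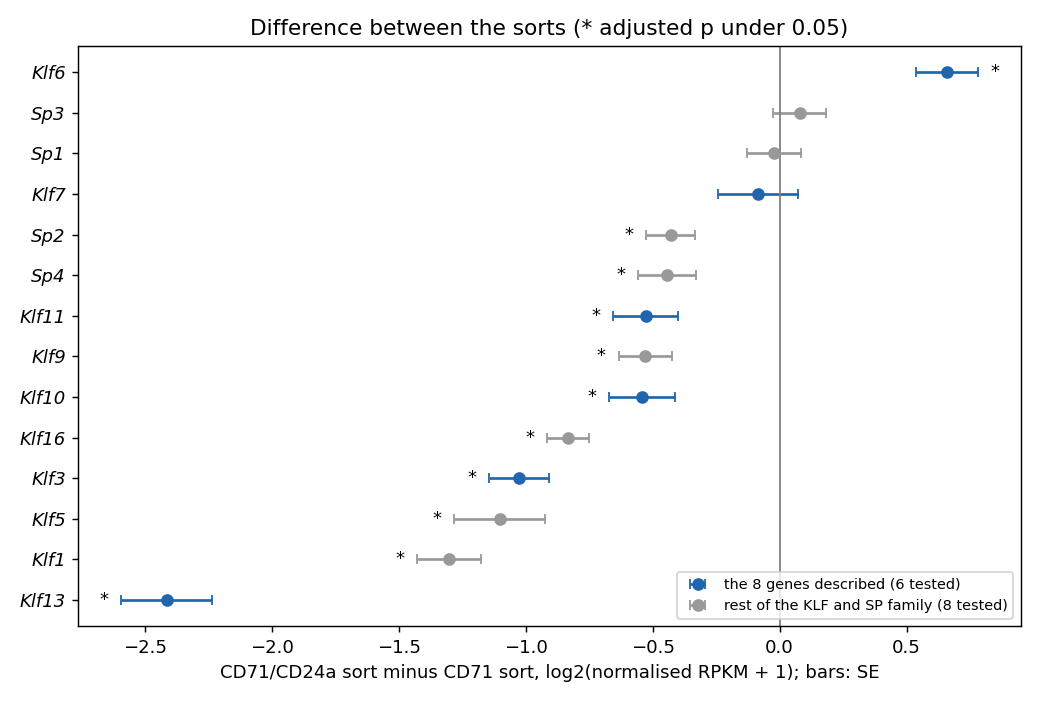
CD71/CD24a sort minus CD71 sort for the 6 tested members (blue) and 8 tested relatives of the KLF and SP family (grey), as the difference of log2(normalised RPKM + 1) from the limma fit with its SE; an asterisk marks an adjusted p under 0.05. Klf13 is the lowest at -2.41, Klf6 is the only one called higher at 0.66, and Klf7 is near 0.

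Cultures in water were also set beside fresh BFU-E, without a test, since culture, sort and library cannot be told apart. In the CD71/CD24a sort Klf13 was 1.95 against 23.8 in fresh BFU-E, a ratio of 0.0820 (0.0722 to 0.0931). Klf11 was 0.732 against 3.93 (0.186, 0.141 to 0.246) and Klf10 4.97 against 11.5 (0.431, 0.376 to 0.492). These 3 of 5 expressed members were past 2-fold lower and 0 higher, against 12.9% lower and 11.2% higher among all genes. Klf11 counted as expressed only through its fresh BFU-E level of 3.93, so it could not count as higher.

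In CD71 sort water Klf13 was 11.3 against 23.8 in fresh BFU-E (0.472, 0.437 to 0.509), and Klf11 was 1.74 against 3.93 (0.442, 0.346 to 0.566). On the scale of log2(level + 1) Klf13 was -1.02 and Klf11 -0.85, so Klf13 was the only 1 of 6 expressed members counted past 2-fold lower, against 9.06% lower and 6.27% higher among all genes. Klf3 was 18.4 against 17.5 (1.05, 0.974 to 1.13), an interval that holds 1, and Klf7 was 1.42 against 0.804 (1.76, 1.37 to 2.28). In CD71/CD24a sort water Klf7 stood at 1.12 of fresh BFU-E (0.876 to 1.44). Of 10 expressed immediate early genes 9 were past 2-fold lower in CD71/CD24a sort water and 7 in CD71 sort water, with 0 higher in either. Among all genes 12.9% and 9.06% were lower, in the same order. Fos, Fosb and Btg2 counted as expressed only through fresh BFU-E, so they could not count as higher. With Dex, Klf13 in the CD71 sort was 28.4, above the 23.8 of fresh BFU-E.

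Over the 9 libraries the members were compared by the Pearson correlation of log2(level + 1), as a description that shares scaling, depth and the single Ter119-positive library between all points. Klf3 and Klf11 were the most alike of the 28 pairs, with r = 0.98 over 9 libraries and 0.87 over the 8 without Ter119-positive cells. Klf3 and Klf6 had r = 0.61 over 9 libraries and -0.91 over 8, so that single library sets the sign of their likeness.

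Among 7477 other genes with a mean level of at least 5, the 2 most like Klf3 were Trappc10 (r = 0.997, and 0.995 without Ter119-positive cells) and Tprgl. Those most like Klf11 were Usp49 (0.997 and 0.990) and Pigo. For Klf10 they were Fbxl19 (0.993 and 0.979) and the platelet glycoprotein gene Gp9. For Klf13 they were Wdr89 (0.975 and 0.984) and 2310009B15Rik. Klf6 was most like Phf8 (0.987 and 0.967) and Nfe2l1, and Klf7 most like Thrap3 (0.923 and 0.884). For Klf2 (Wasf2 and Capns1) and Klf4 (Kansl3 and Grn), values rest on 0 to 9 reads per library.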

How the data were processed

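RNA was sequenced as paired-end mRNA libraries from 300 bp gel bands, per the labels' protocols. The values are RPKM per RefSeq transcript that the authors computed and deposited, 1 table per library with 23041 records, on mm9 per the submitters' processing notes. Aligner, counting tool and strand use are not given in the sources used here. In the 4 CD71/CD24a tables an exact 1 (5954 to 7412 values, with no 0) was read as 0, since the other 5 tables hold 7240 to 8929 zeros and no exact 1.

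Symbols came from RefSeq (22393 records) and GENCODE (118) on GRCm38, 530 records stayed unnamed, and the record with the highest mean was kept for the 2158 names with several. Each library was divided by the median of its ratios to the geometric mean over the 6888 genes that reached 1 RPKM in every library. Steps between low RPKM values gave the depth (66.8% to 69.6% whole within 0.1 reads, against 20.0% by chance). Exact (Clopper-Pearson) 95% intervals and the limit of 3 reads use these reads. They cover counting error only, because reads may be PCR copies of 1 molecule.

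The cultures were tested with limma 3.58.1 in R 4.3.3 (moderated by empirical Bayes, trend over the mean) on log2(normalised RPKM + 1), which understates changes of low genes, with Benjamini-Hochberg adjustment and a threshold of 0.05. The sort and DMOG were terms beside Dex because the treatment protocol divides the cells of a sort between the arms, which makes the Dex and no-Dex arms pairs. The scripts were tested on simulated data. Nothing in the labels says that libraries came from separate pools of embryos. The p-values measure the spread of the Dex difference between pairs of these libraries, which may be technical. The sort and DMOG terms are judged against that spread too. Tables were made with Python 3.11.15, pandas 2.3.3, NumPy 2.4.6 and SciPy 1.17.1 and figures with matplotlib 3.10.9.

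The 8 genes and the gene lists were chosen with earlier results of these data known. The text names all 8 genes, list genes past the threshold or used as controls, and the 2 genes most correlated with each of the 8, of which 1 is not reported here. Alternatives were another pseudocount (0.1), no filter, no scaling factor, an exact 1 kept, the lowest record per name, no sort term and leaving out each culture. Protein sequences were not used here.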

Additional observations from a re-analysis of the deposited data

Results flagged for a closer look

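The Dex by sort term of Klf13 passed the threshold, though it sets the single CD71 pair against 2 CD71/CD24a pairs with 1 residual degree of freedom. It was -0.65 (SE 0.155, limma, adjusted p 0.0328), with ratios of Dex over no Dex of 1.68 and 1.88 in the CD71/CD24a pairs and 2.52 in the CD71 pair. The call ended with a pseudocount of 0.1 (-0.52, adjusted p 0.123).

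For 3 members the Dex difference of the CD71 pair had the opposite sign to those of both CD71/CD24a pairs. Klf7 was 0.32 and 0.21 higher in the CD71/CD24a pairs on the log2 scale and differed by -0.20 in the CD71 pair. Klf10 differed by -0.35 and -0.08 in the CD71/CD24a pairs and by 0.10 in the CD71 pair. Klf11 differed by 0.25 and 0.19 in the CD71/CD24a pairs and by -0.015 in the CD71 pair. The difference between the sorts was tested for each and did not pass (limma, adjusted p 0.150 for Klf7, 0.266 for Klf10 and 0.454 for Klf11).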

How the results depend on the processing

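Of 51 alternative values for counts of genes called or past 2-fold, 35 stayed within 1.5 times the reported count. The Dex count of 193 became 0 without the filter, 3 with no replicate block (the sort term that holds the pairing) and 132 to 1253 without single cultures, highest without a CD71 sort library. The DMOG count of 2 became 0 with a pseudocount of 0.1, 7 without the filter, 7 with the lowest record per name, 0 without the block and 2 to 139 without single cultures. The count of 5165 between the sorts became 2182 to 6264. Without the scaling factor, 788 genes were past 2-fold higher and 5618 lower in Ter119-positive cells against CFU-E, in place of 2156 and 2745. Of 264 values for single members 220 kept direction and side of the threshold, or moved little where there was no test, and 21 tested differences changed sign, none of which had passed the threshold. The untested difference of Klf13 between Ter119-positive cells and CFU-E also changed sign, at -0.87 without the scaling factor. Without the block the DMOG differences became -0.46 (Klf3), 0.21 (Klf6), -0.12 (Klf10), -0.26 (Klf11) and -1.07 (Klf13), since that model sets the sorts against each other. The DMOG difference of Klf7 became 0.0027 with a pseudocount of 0.1 and 0.0023 without the scaling factor. Also without the factor, the sort difference of Klf7 became 0.0097 and the Dex by sort term of Klf6 -0.031. Without single cultures, Dex differences ran from -0.22 to 0.0072 for Klf10, and DMOG differences from -0.050 to 0.17 for Klf3, -0.16 to 0.16 for Klf7, -0.026 to 0.33 for Klf10, -0.077 to 0.085 for Klf11 and -0.079 to 0.35 for Klf13. The sort difference of Klf7 ran from -0.32 to 0.15. Otherwise the cause was not tested. The Dex by sort and Dex by DMOG terms could not be fitted without single cultures. Depth limits Klf2 and Klf4, at 0 to 9 reads per library.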
